A study of Homo sapiens with 3 samples.

Results

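Cells take up amino acids, glucose and lactate through carriers of the solute carrier (SLC) superfamily. The genes described here are those whose symbols start with SLC1A, SLC2A, SLC3A, SLC6A, SLC7A, SLC16A, SLC36A, SLC38A or SLC43A. The rule took 84 of the 18836 genes that were listed in at least 1 of 3 human libraries. Of these 84, 76 are transporter genes and 8 share only the letters of the symbol, namely 3 antisense RNAs, 3 pseudogenes, SLC2A4RG, a transcription regulator of SLC2A4, and SLC7A6OS, which lies on the strand opposite SLC7A6. RefSeq has 90 coding genes whose symbols start with these letters, and 10 of them were listed in no library (among them SLC1A6, SLC2A2, SLC2A7, SLC6A18, SLC6A19, SLC7A3, SLC7A4, SLC7A13 and SLC38A11).

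A549, a line from a lung adenocarcinoma, was sequenced by LIEA, and HBE, a line of bronchial epithelial cells, by LIEA and by Smart-seq2. Each library was made from 10 pg of polyA+ mRNA diluted from bulk mRNA, and no treatment is named for either line. In LIEA the mRNA was fragmented and carried adapters before amplification and was sequenced on Ion Torrent, whereas in Smart-seq2 the cDNA was primed at the polyA tail, amplified at full length and sequenced on Illumina. Method and platform therefore cannot be told apart. Where A549 is set against Smart-seq2 of HBE below, line and method differ together and cannot be told apart either. With 1 library per condition there was no replicate, no test was possible, and every interval below covers counting error in that library only, since PCR copies of a molecule are counted as separate reads. A line sequenced from 1 preparation stands for that preparation.

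The mapped reads were 4154060 for LIEA of A549, 4605855 for LIEA of HBE and 9845150 for Smart-seq2 of HBE. They were worked out from the deposited values, which are log2 rpkM (reads scaled by transcript length and by mapped reads). A gene with at least 10 reads was counted as quantified, a gene that was not listed had no reads and was set against a floor of 3 reads, and a difference was called when the rpkM differed by at least 2-fold. All 6 epithelial markers were quantified in every library. The basal keratin KRT5 was at 552 rpkM in LIEA of HBE and 407 in Smart-seq2 of HBE, against 1.88 in A549. Of 4 leukocyte markers only LYZ was quantified, and of 5 fibroblast markers only COL1A1, in each library, and CD3E, COL1A2 and DCN were listed in none. Of 3 endothelial markers, 0 were quantified in A549, 3 in LIEA of HBE and 2 in Smart-seq2 of HBE, with summed levels of 0.487, 12.3 and 10.9 rpkM, led by CDH5, which was not listed in A549. The part of this difference in the values below was not tested.

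SLC7A5 (LAT1) and SLC3A2 (4F2hc, or CD98) form the exchanger that brings leucine and other large neutral amino acids into the cell in return for glutamine. SLC3A2 is the heavy chain that carries several SLC7A light chains to the membrane, among them SLC7A11 (xCT), which exchanges glutamate for cystine, the precursor of glutathione. SLC1A5 (ASCT2) and the SLC38A family bring in glutamine, SLC2A1 (GLUT1) brings in glucose, and SLC16A1 (MCT1) and SLC16A3 (MCT4) move lactate with a proton. SLC7A11 is a target of NRF2, a transcription factor of the antioxidant response that is kept active in A549 by a defect of its repressor KEAP1, and several amino acid carriers are targets of ATF4.

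NRF2 acts through the antioxidant response element, so its core was looked for in the 250 bases before the gene starts of RefSeq (GRCh38.p14). The letters searched were TGACNNNGC on both strands. They were present at 7 of 91 starts, belonging to 61 member genes with an entry (7.69%), and at 10.9% of all 35116 starts. Thus the core was no more frequent before these genes than before others. SLC7A11 has no entry. The windows below are shown because they lie before a RefSeq start of SLC3A2 and of SLC7A genes that differed by over 2-fold between the cell lines, with the core in capitals and 10 bases on either side, read 5′ to 3′ on the strand of the gene and placed on GRCh37 by exact match.
SLC3A2 (chr11:62649124-62649152, + strand): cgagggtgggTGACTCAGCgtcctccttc
SLC7A7 (chr14:23289070-23289098, - strand): cctctgggtcTGACCAGGCagtcccagct
SLC7A1 (chr13:30169892-30169920, - strand): tgcccggcggTGACGCGGCcgagcgggcc
SLC7A6 (chr16:68298390-68298418, + strand): cggcggcgggTGACGTGGCggggcggggc
The starts of SLC3A2 and SLC7A7 concerned are internal ones, so these windows lie within the annotated span of the gene. SLC7A6 holds a further match. None of these 4 windows overlaps an annotated exon. The core before SLC3A2 begins 37 bases before the start, and its first letters are also those of the AP-1 element TGACTCA. SLC7A7 was higher in A549, while SLC3A2, SLC7A1 and SLC7A6 were lower, so genes with this core lay on both sides. The ATF4 core TGATGNAA, likewise searched on both strands, was present at 3 starts of members (3.30%) and at 3.14% of all starts, with SLC1A3, SLC1A5 and SLC2A5 holding it. A match describes the letters only.

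LIEA of A549 quantified 50 of the 84 genes, LIEA of HBE 50 and Smart-seq2 of HBE 55. Of all 84, 38 were quantified in every library and 20 in none. The genes together took 0.484% of the mapped reads in A549, 1.45% in LIEA of HBE and 1.08% in Smart-seq2 of HBE. These reads were concentrated on few genes, as the 5 with most reads held 62.8%, 81.2% and 78.4% of them. SLC3A2 and SLC7A5 had the 2 highest counts in each library. The remaining places were taken by SLC1A5, SLC6A6 and SLC38A2 in A549, by SLC16A3, SLC2A1 and SLC38A2 in LIEA of HBE, and by SLC2A1, SLC16A1 and SLC16A3 in Smart-seq2 of HBE.

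**Figure D1:**
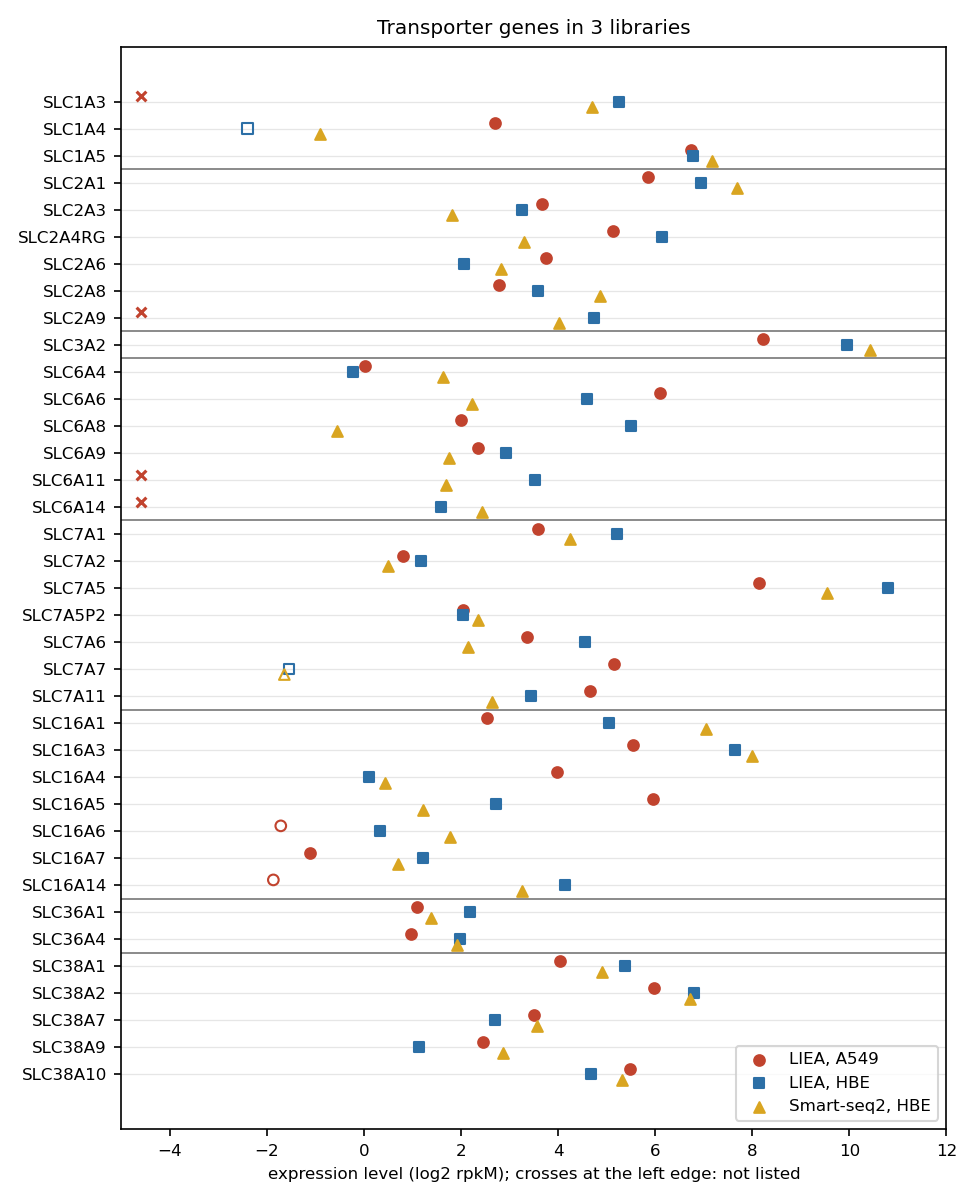
Expression level (log2 rpkM, horizontal) of 37 members with at least 100 reads in a library or chosen by name, by family, with circles for LIEA of A549, squares for LIEA of HBE and triangles for Smart-seq2 of HBE. Open symbols have fewer than 10 reads and crosses were not listed; SLC7A5 and SLC3A2 lie to the right of every other gene in HBE, and SLC1A3, SLC2A9, SLC6A11 and SLC6A14 carry the cross of A549.

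The first comparison asked how the carriers differ between the cell lines when the method is the same. Of 39 members with at least 10 reads in both LIEA libraries, 8 were at least 2-fold higher in A549 (20.5%), 16 were at least 2-fold lower (41.0%) and 15 lay within 2-fold. Over all 11253 such genes, 13.4% were higher and 17.2% were lower in A549. The median log2 ratio of A549 to HBE was -0.56 for the members and -0.16 for all genes. Of the 61 members quantified in at least 1 of the 2 libraries, 11 were quantified only in A549 (18.0%, against 9.45% of all genes) and 11 only in HBE (18.0%, against 7.56%). The lower carriers included the 4 genes with the highest levels in LIEA of HBE, which are SLC7A5, SLC3A2, SLC16A3 and SLC2A1, and the less abundant lactate carrier SLC16A1. SLC38A2 and SLC1A5, next in level there, lay within 2-fold at -0.83 and -0.04. The higher ones included xCT, the taurine carrier SLC6A6 and the monocarboxylate carriers SLC16A4 and SLC16A5.

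The exchanger of large neutral amino acids had its highest level in HBE. SLC7A5 (chr16:87863629-87903113, GRCh37) had 5300 reads and 281 rpkM in LIEA of A549, 37029 reads and 1769.7 rpkM in LIEA of HBE, and 33124 reads and 741 rpkM in Smart-seq2 of HBE. A549 was thus 6.30-fold lower than HBE by LIEA, with a log2 ratio of -2.66 and a 95% counting interval from -2.70 to -2.61. Its heavy chain SLC3A2 (chr11:62623476-62656352) had 2903 reads and 298 rpkM in A549, 10629 reads and 985 rpkM in LIEA of HBE, and 31797 reads and 1378 rpkM in Smart-seq2 of HBE. The log2 ratio of A549 to HBE was -1.72 (-1.78 to -1.66). Both chains were lower in A549 in either HBE comparison, but light chain exceeded heavy chain only in LIEA of HBE. The pseudogenes SLC7A5P1 and SLC7A5P2 are 96.7% and 96.3% identical to SLC7A5 over 538 and 536 nt, so their reads cannot be firmly assigned. At 55 and 48 reads in LIEA of HBE, they were few beside those of SLC7A5.

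The other light chains of SLC3A2 lay on both sides. SLC7A11 (chr4:139085251-139163503) had 1012 reads and 25.3 rpkM in A549, 482 reads and 10.8 rpkM in LIEA of HBE, and 587 reads and 6.18 rpkM in Smart-seq2 of HBE. It was 2.33-fold higher in A549, with a log2 ratio of 1.22 (1.06 to 1.38). SLC7A7 (y+LAT1, chr14:23242431-23299029), which exports cationic amino acids against neutral ones, had 187 reads and 35.5 rpkM in A549 but 2 reads in LIEA of HBE and 4 in Smart-seq2 of HBE. The log2 ratio was 6.70, and with 2 reads in HBE its interval ran from 4.82 to 9.75. SLC7A6 (y+LAT2), which has the same kind of activity, was instead lower in A549, with 10.3 rpkM against 23.3 in LIEA of HBE and a log2 ratio of -1.18 (-1.39 to -0.98). In A549 the order of the pair was therefore SLC7A7 above SLC7A6, and in both HBE libraries SLC7A6 above SLC7A7. SLC7A8 (LAT2) was low throughout, with 5, 12 and 43 reads. The antisense RNA SLC7A11-AS1 had 11, 9 and 30 reads, and whether the counting used strand is not given in the sources used here.

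Of the carriers of cationic amino acids, SLC7A1 (CAT1) was at 11.9 rpkM in A549, 37.3 in LIEA of HBE and 18.9 in Smart-seq2 of HBE, and A549 was lower than HBE by 1.64 on the log2 scale (log2 ratio -1.64, interval -1.82 to -1.47). SLC7A2 (CAT2), with 55, 79 and 105 reads, lay within 2-fold. SLC7A5 held 76.6% of the summed rpkM of the SLC7A transporters in A549, against 95.9% in LIEA of HBE and 95.8% in Smart-seq2 of HBE. The sum itself was 367 rpkM in A549, 1844 in LIEA of HBE and 773 in Smart-seq2 of HBE. Hence the more even make-up of SLC7A in A549 came with a lower SLC7A5 together with a higher SLC7A7 and SLC7A11. SLC3A1 (rBAT), the heavy chain of the cystine carrier of kidney and gut, had 23, 13 and 2 reads, and its length fits the annotation poorly, so these reads may be low by a factor of 2.

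**Figure D2:**
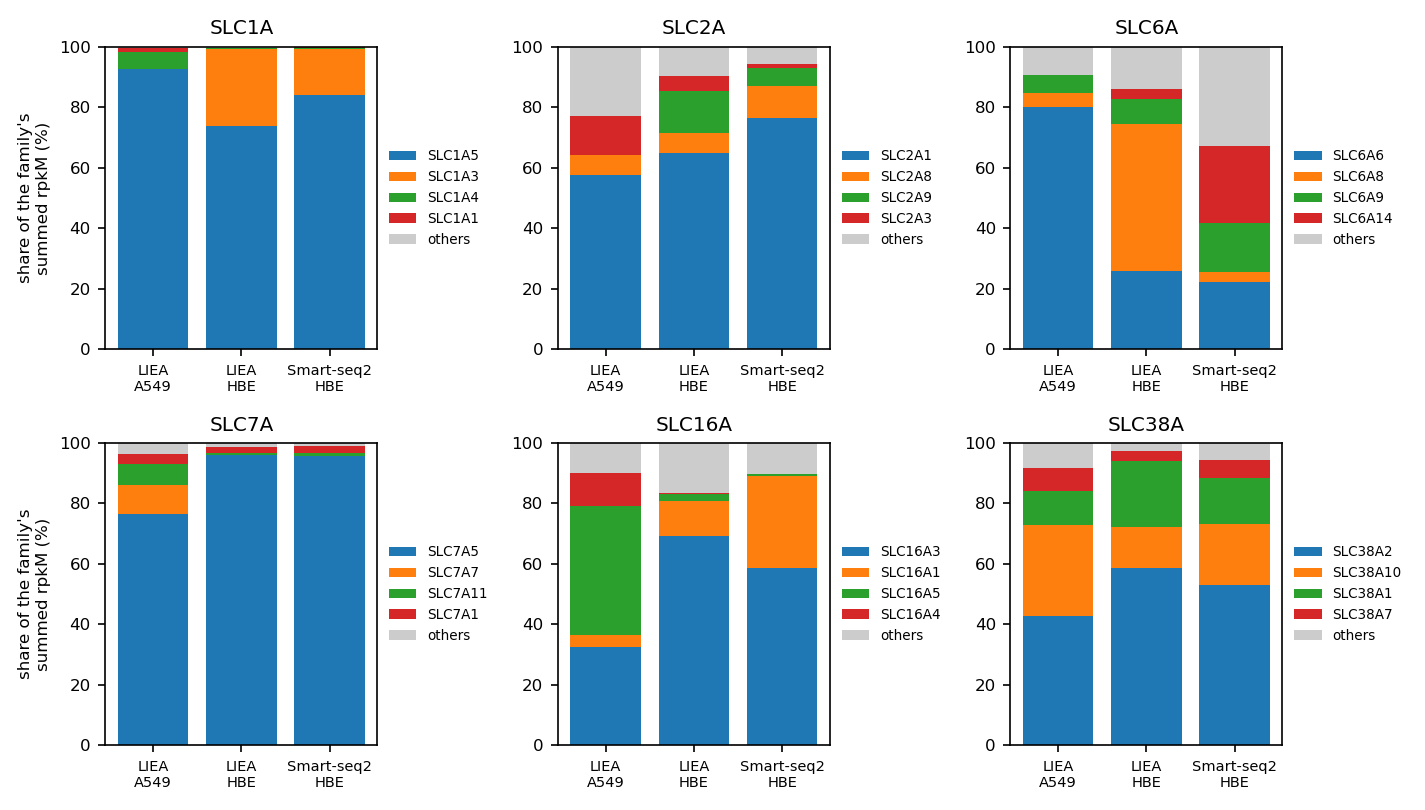
Share (%, vertical) of each family's summed rpkM held by 4 of its leading transporter genes and by the others, in LIEA of A549, LIEA of HBE and Smart-seq2 of HBE, for 6 families. The colour of SLC16A5 fills 42.8% of SLC16A in A549 where SLC16A3 leads in HBE, and SLC6A6 fills 80.2% of SLC6A in A549 where SLC6A8 leads LIEA of HBE with 48.8%.

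Among the glutamate and neutral amino acid carriers of SLC1A, the glutamine carrier SLC1A5 (chr19:47278140-47291851) was at 107 rpkM in A549, 110.0 in LIEA of HBE and 144 in Smart-seq2 of HBE. Its log2 ratio of A549 to HBE was -0.04 (-0.15 to 0.06), and the sign turned to 0.12 when ratios were centred on the median of all genes. After rescaling to a common sum it was -0.20, so the lines lay within 2-fold at each scaling, and the sign depended on the scaling. The glutamate carrier SLC1A3 (EAAT1, chr5:36596690-36688436) had 731 reads and 38.1 rpkM in LIEA of HBE and 1073 reads and 26.1 rpkM in Smart-seq2 of HBE, and was not listed in A549. Against a floor of 3 reads it was at least 220-fold lower in A549 (bound 219.8). SLC1A4 (ASCT1), a carrier of alanine, serine and cysteine, went the other way, with 124 reads and 6.49 rpkM in A549, 4 reads in LIEA of HBE and 24 in Smart-seq2 of HBE, a log2 ratio of 5.10 (3.71 to 7.0). SLC1A1 had 25, 6 and 10 reads. SLC1A2 had 10, 18 and 25.

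The sodium-coupled neutral amino acid carriers of SLC38A were similar in sum, at 148 rpkM in A549, 191 in LIEA of HBE and 198 in Smart-seq2 of HBE. SLC38A2 (SNAT2, chr12:46751971-46766556), whose RNA is known to rise on amino acid shortage, led in each library at 63.3, 112 and 105 rpkM, with a log2 ratio of A549 to HBE of -0.83 (-0.92 to -0.73). SLC38A1 (SNAT1) was past 2-fold, at 16.4 rpkM in A549 and 41.6 in HBE by LIEA, a log2 ratio of -1.34 (-1.48 to -1.20). Within LIEA, SLC38A9 and SLC38A7, both located at the lysosome, lay on the other side. SLC38A9, which passes the arginine signal to mTORC1, had 61 reads in A549 and 27 in HBE, a log2 ratio of 1.32 (0.65 to 2.04). SLC38A7, which exports glutamine from lysosomes, was at 0.81 (0.40 to 1.22), within 2-fold. Against Smart-seq2 of HBE, where method differs as well as line, neither was higher in A549. SLC38A9 was at 5.47 rpkM in A549 and 7.30 in Smart-seq2 of HBE, and SLC38A7 was nearly level at 11.4 and 11.9. By LIEA, SLC38A10 was at a log2 ratio of 0.81 (0.65 to 0.97) with 844 and 533 reads. SLC38A6 reached 10 reads only in A549 of the LIEA libraries (53 against 8), and SLC38A4 only in HBE, with 32 reads against none listed. The proton-coupled carriers SLC36A1 and SLC36A4 were low, between 1.95 and 4.55 rpkM in all 3 libraries, and were lower in A549 with log2 ratios of -1.10 (-1.60 to -0.61) and -1.02 (-1.53 to -0.52), both under 2-fold, at -0.94 and -0.86, when centred on the median of all genes. In SLC43A, SLC43A2 (LAT4) had 65 reads in A549 and 18 in HBE by LIEA, a log2 ratio of 2.001 (1.23 to 2.84), and SLC43A1 (LAT3) had 31 and 2.

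The SLC6A family carries amino acids, amines, taurine and creatine with sodium and chloride. Its sum was alike in the LIEA libraries, at 85.0 rpkM in A549 and 93.0 in HBE, but the leading gene differed. SLC6A6, the taurine carrier (chr3:14444076-14530857), had 1851 reads and 68.2 rpkM in A549, 723 reads and 24.0 rpkM in LIEA of HBE, and 302 reads and 4.69 rpkM in Smart-seq2 of HBE. It was 2.84-fold higher in A549 than in LIEA of HBE, with a log2 ratio of 1.51 (1.38 to 1.63). SLC6A8, the creatine carrier (chrX:152953381-152962043), had 59 reads and 3.98 rpkM in A549 and 746 reads and 45.4 rpkM in LIEA of HBE. It was 11.4-fold lower in A549, with a log2 ratio of -3.51 (-3.92 to -3.13), the lowest ratio of the 39 members. The level of SLC6A8 in HBE depended on the method, as described below. Its pseudogene SLC6A10P, 96.4% identical over the aligned part, had 25 reads in LIEA of HBE and was not listed elsewhere.

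Some of the low SLC6A members were quantified in 1 of the lines only. SLC6A14, which carries neutral and cationic amino acids in airway and gut, had 63 reads in LIEA of HBE and 243 in Smart-seq2 of HBE, and was not listed in A549, which was at least 18.9-fold lower. SLC6A11, a carrier of GABA, had 106 and 63 reads in the HBE libraries, and A549 was at least 31.9-fold lower. Quantified in A549 only, SLC6A16 had 45 reads, against 1 in LIEA of HBE and none in Smart-seq2, and SLC6A13 and SLC6A17 had 15 each, with 5 reads of SLC6A13 in Smart-seq2 of HBE. The count of SLC6A17 rests on a factor of 3 common to reads and length. At its smallest whole value it is under 10 reads. The glycine carrier SLC6A9 and the serotonin carrier SLC6A4 were within 2-fold between the lines, at log2 ratios of -0.56 (-1.01 to -0.13) and 0.26 (-0.57 to 1.08).

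Glucose carriers were led by SLC2A1 (GLUT1, chr1:43391024-43424564) in every library. It had 875 reads and 57.4 rpkM in A549, 2068 reads and 122 rpkM in LIEA of HBE, and 7454 reads and 206 rpkM in Smart-seq2 of HBE. A549 was 2.13-fold lower than LIEA of HBE, a log2 ratio of -1.09 (-1.21 to -0.98), which was past 2-fold as deposited and under it, at -0.93, when ratios were centred on the median of all genes. SLC2A3 (GLUT3), a carrier of high affinity for glucose, was at 12.7 and 9.48 rpkM, a log2 ratio of 0.42 (0.12 to 0.72). Its close copy SLC2A14 is 97.6% identical over 1344 nt, so the reads of the pair may be shared. SLC2A6 was higher in A549, with 142 reads against 49 and a log2 ratio of 1.68 (1.21 to 2.18), and so was the myo-inositol carrier SLC2A13 at 1.60 (0.82 to 2.44). SLC2A11 was lower at -1.18 (-1.77 to -0.62).

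The urate carrier SLC2A9 (chr4:9772777-10056560) had 229 reads and 26.6 rpkM in LIEA of HBE and 297 reads and 16.1 rpkM in Smart-seq2 of HBE. It was not listed in A549, which was at least 68.8-fold lower. SLC2A10 likewise had 46 and 41 reads in HBE and was not listed in A549, and the insulin-responsive SLC2A4 had 8 reads in A549 against 29 and 80. SLC2A12 had 39 reads in A549 and 6 in LIEA of HBE. SLC2A4RG, which is no carrier, stood at the 2-fold limit with 332 and 738 reads and a log2 ratio of -1.003 (-1.19 to -0.81).

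The monocarboxylate carriers of SLC16A ranged widely between the lines. SLC16A3 (MCT4, chr17:80175810-80219005), the exporter of lactate in glycolytic cells, had 406 reads and 46.8 rpkM in A549, 1928 reads and 201 rpkM in LIEA of HBE, and 5233 reads and 255 rpkM in Smart-seq2 of HBE. SLC16A1 (MCT1, chr1:113454469-113500215) had 105 reads and 5.77 rpkM in A549, 671 reads and 33.3 rpkM in LIEA of HBE, and 5737 reads and 133 rpkM in Smart-seq2 of HBE. Both were lower in A549 than in either HBE library, and the log2 ratios within LIEA were -2.10 (-2.26 to -1.94) and -2.53 (-2.84 to -2.23). SLC16A7 (MCT2) was lower as well, at -2.34 (-3.05 to -1.69). SLC16A14 had 5 reads in A549 against 360 in LIEA of HBE and 415 in Smart-seq2 of HBE, a log2 ratio of -6.02 (-7.65 to -4.79).

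The exceptions within the family were higher in A549. SLC16A5 (MCT6, chr17:73083822-73102257) had 519 reads and 61.9 rpkM in A549, 61 reads and 6.57 rpkM in LIEA of HBE, and 46 reads and 2.32 rpkM in Smart-seq2 of HBE. Its log2 ratio was 3.24 (2.85 to 3.65), and it was the SLC16A gene with the highest level in A549. SLC16A4 had 171 reads in A549 and 13 in HBE by LIEA, a log2 ratio of 3.87 (3.05 to 4.80), which was the highest of the 39 members. The partner of MCT1 and MCT4 on the membrane, BSG (basigin), was at 414 rpkM in A549 and 366 in HBE by LIEA, a log2 ratio of 0.18, so it did not move with the carriers. EMB (embigin), a partner of MCT2, had 21 and 108 reads and a log2 ratio of -2.21 (-2.96 to -1.53).

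**Figure D3:**
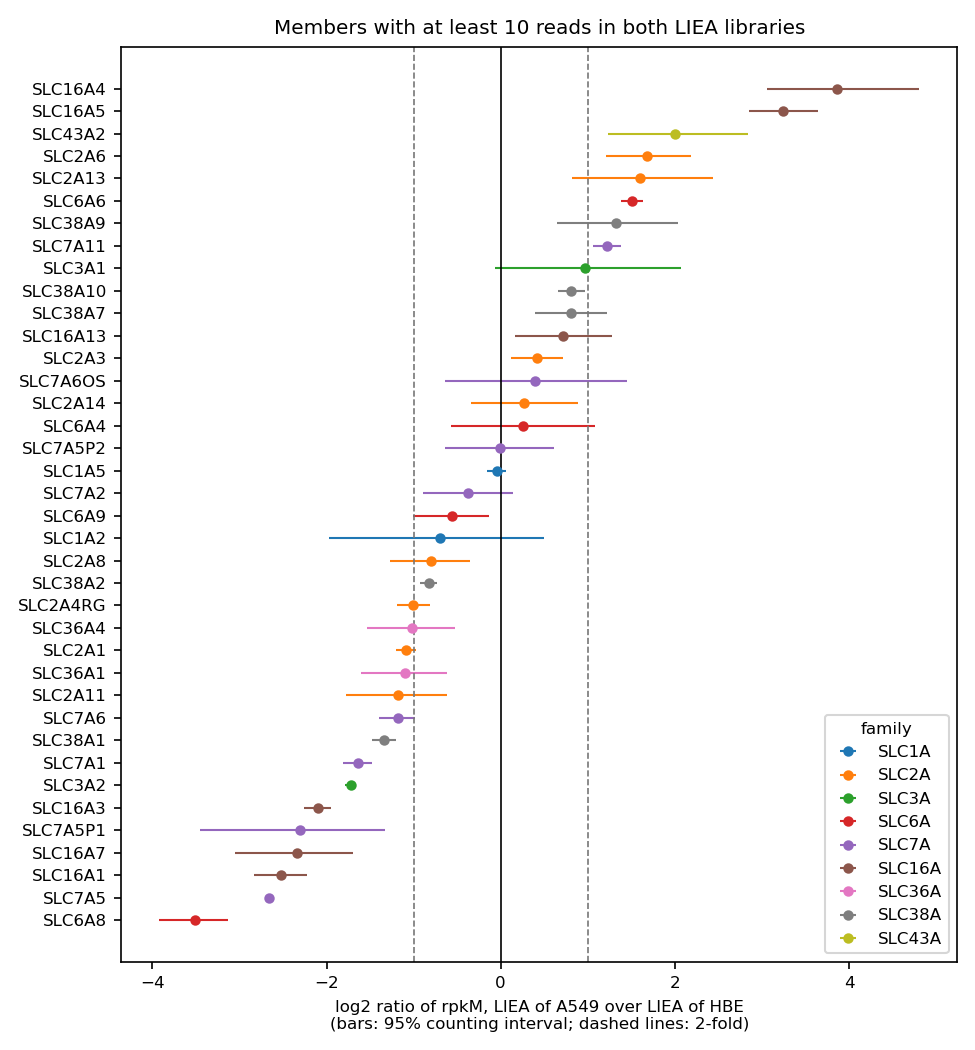
Log2 ratio of rpkM of A549 to HBE, both by LIEA (horizontal), for 38 members with at least 10 reads in both, sorted, with 95% counting intervals as bars and the 2-fold limits dashed. SLC16A4 and SLC16A5 stand at the top with 3.87 and 3.24, and SLC6A8 and SLC7A5 at the bottom with -3.51 and -2.66.

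Genes of related pathways were counted in the same way, against the same shares of all genes (13.4% higher and 17.2% lower). Of 24 genes of the NRF2 pathway, 23 had at least 10 reads in both LIEA libraries, and 20 were at least 2-fold higher in A549 and none lower, with a median log2 ratio of 3.13. AKR1C3, an aldo-keto reductase, was at 6.71 with 11129 and 118 reads, HMOX1 (heme oxygenase) at 6.42 with 1079 and 14, and the drug exporter ABCC3 at 5.26 with 7621 and 220. AKR1B10 had 22999 reads in A549 and 7 in LIEA of HBE. SLC7A11, at 1.22, was thus lower than the median of the genes with which it is grouped. Nearest to it among those called higher were TXN, at 1.07, and GCLM, a subunit of the enzyme that starts glutathione synthesis, at 1.44. GCLM was at 32.4 rpkM in A549, 11.9 in LIEA of HBE and 47.3 in Smart-seq2 of HBE, so its direction depended on the HBE library. TXN and FTH1 likewise lay between the HBE levels in A549, while the other genes called higher were above both HBE libraries.

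The ATF4 amino acid response did not move one way, as 3 of 17 genes were higher and 5 lower, with a median of -0.29. The stress gene DDIT4 was at -2.66 with 835 and 5862 reads and STC2 at -3.74 with 19 and 281, whereas NUPR1 was at 3.08 with 137 and 18. Of 16 genes of the HIF1 and glycolytic list, 3 were higher and 4 lower, with a median of -0.54. CA9 (carbonic anhydrase 9) was at -4.27 with 27 and 577 reads, VEGFA at -3.25 with 177 and 1869, and ADM (adrenomedullin) at 3.92 with 641 and 47. For VEGFA the direction depended on which HBE library was taken, with 11.6 rpkM in A549, 111 in LIEA of HBE and 2.14 in Smart-seq2 of HBE. The hexokinase HK2, the enzyme that traps glucose once it has entered, had 8 reads in A549 and 1161 in LIEA of HBE, next to 1007 and 1985 for HK1.

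Glutamine and glutathione enzymes were divided, with 3 of 12 higher, 3 lower and a median of 0.03. GGT1, which breaks down extracellular glutathione, was at 2.76 with 740 and 121 reads and the cysteine-pathway enzyme CBS at 2.38 with 122 and 26, while the glutaminase GLS2 was at -4.21 with 11 and 225 and the glutamine synthetase GLUL at -1.56 with 282 and 925. Among the genes of glucose and amino acid sensing, 3 of 16 were higher and 3 lower, with a median of 0.06. TXNIP, which is induced by glucose and restrains GLUT1, had 9 reads in A549 and 581 in LIEA of HBE, MYC was at -1.19 with 1073 and 2707, and LAMTOR2, a subunit of the lysosomal scaffold of mTORC1, was at 1.73 with 362 and 121. Of the partners of transporters, none of 5 was higher and 2 were lower. These were SLC3A2 and EMB.

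The second comparison asked how the levels of the same carriers in HBE depend on the method. It shares the LIEA library of HBE with the first, so a value of that library enters both. Of 47 members with at least 10 reads in both HBE libraries, 12 were at least 2-fold higher in LIEA (25.5%) and 5 at least 2-fold lower (10.6%), with 30 within 2-fold. Over all 11686 such genes, 27.7% were higher and 19.4% were lower in LIEA. The median ratio of LIEA over Smart-seq2 was 0.24 on the log2 scale for the members and 0.10 for all genes. Of 58 members quantified in at least 1 of the libraries, 3 were quantified only by LIEA (5.17%, against 4.39% of all genes) and 8 only by Smart-seq2 (13.8%, against 8.96%), which had the larger number of reads. The split of higher and lower calls depended on GC content: when each ratio was centred on the median of genes of the same GC content (10 classes), 11 members were higher in LIEA and 14 lower. The shares of all genes after this centring are not given here, so these counts stand without a background.

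The 4 genes with the highest levels in Smart-seq2 of HBE were SLC3A2, SLC7A5, SLC16A3 and SLC2A1, and the same genes had the highest levels in LIEA of HBE. SLC7A5 was 2.39-fold higher in LIEA, with a log2 ratio of 1.26 (1.24 to 1.28), whereas SLC3A2 was at -0.48 (-0.52 to -0.45), SLC16A3 at -0.34 (-0.42 to -0.27) and SLC2A1 at -0.75 (-0.82 to -0.68). SLC7A5 was therefore above SLC3A2 in LIEA and below it in Smart-seq2. Among the other abundant carriers, SLC38A2 at 0.10 (0.03 to 0.17) and SLC1A5 at -0.39 (-0.48 to -0.30) lay within 2-fold as deposited. SLC16A1 did not, at -2.00 (-2.12 to -1.88). These values moved when ratios were centred on genes of like GC content. SLC7A5 then stood at 0.51 and SLC38A2 at 0.82, within 2-fold, while SLC16A3 at -1.43, SLC2A1 at -1.25 and SLC1A5 at -1.48 were past 2-fold lower in LIEA.

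The creatine carrier SLC6A8 differed most. It had 746 reads and 45.4 rpkM in LIEA of HBE and 24 reads and 0.683 rpkM in Smart-seq2 of HBE, although the latter had more reads in all. The ratio was 66.4-fold and the log2 ratio 6.05 (5.47 to 6.71), or 4.97 after centring on genes of like GC content. Next came SLC2A4RG at 2.85 (2.63 to 3.07), the y+LAT2 gene SLC7A6 at 2.41 (2.20 to 2.62), SLC6A6 at 2.36 (2.16 to 2.55) and SLC2A11 at 2.05 (1.53 to 2.58). SLC6A11, SLC16A5, SLC2A3, SLC7A5P1, SLC2A10 and SLC6A9 lay between 1.16 and 1.85. After the same centring SLC16A5 and SLC6A9 were under 2-fold, at 0.76 and 0.41, and SLC6A11 and SLC2A3 stayed past it, at 1.35 and 1.36. For SLC7A5P1 and SLC2A10 no value after centring is given here, so their place past 2-fold holds only as deposited. For SLC6A6 and SLC6A8, the level in HBE by LIEA was thus several times that by Smart-seq2, so that A549 by LIEA was above HBE by either method for SLC6A6, and for SLC6A8 lay between the HBE values.

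Lower in LIEA was above all MCT1, with SLC16A1 at a log2 ratio of -2.00 (-2.12 to -1.88), from 671 and 5737 reads. The serotonin carrier SLC6A4 was at -1.85 (-2.50 to -1.25) with 26 and 200 reads, SLC38A9 at -1.74 (-2.38 to -1.16) with 27 and 193, SLC16A6 at -1.44 (-2.14 to -0.79) with 23 and 133, or -0.86 after centring by GC content, and SLC2A8 at -1.28 (-1.58 to -0.999) with 120 and 624. SLC38A9, whose ratio between the lines was 1.32 by LIEA, was at 5.47 rpkM in A549 and at 7.30 in Smart-seq2 of HBE, so the direction of its difference between the lines depended on which HBE library was taken. The same held for SLC6A8, SLC7A6, SLC2A11 and SLC2A4RG. Of the 24 members called between the lines by LIEA, these 5 had an A549 level between the HBE levels. The share of all called genes with such a level is not given here, so this count only describes the members. For SLC7A11 the ratio was 0.81 (0.63 to 0.99) as deposited, 1.01 after rescaling to a common sum and 1.53 after centring by GC content, so its place within 2-fold depended on the scaling, and A549 was above both HBE libraries.

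Quantified only by LIEA were SLC3A1, SLC38A4 and the pseudogene SLC6A10P, and only by Smart-seq2 SLC1A1, SLC1A4, SLC2A12, SLC6A20, SLC7A14, SLC36A2, SLC38A6 and SLC7A11-AS1. Apart from SLC38A6, with 64 reads, these 8 had between 10 and 30 reads in Smart-seq2. Across genes, the ratio between the methods followed GC content with a Spearman's rho of 0.39 over 11473 genes and 0.16 over the 47 members, given as a description since genes within the same libraries are not replicates. Members of like GC content spread widely, as SLC6A8 (63.0% GC) was at 6.05, SLC2A8 (62.5%) at -1.28 and SLC16A3 (62.7%) at -0.34.

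**Figure D4:**
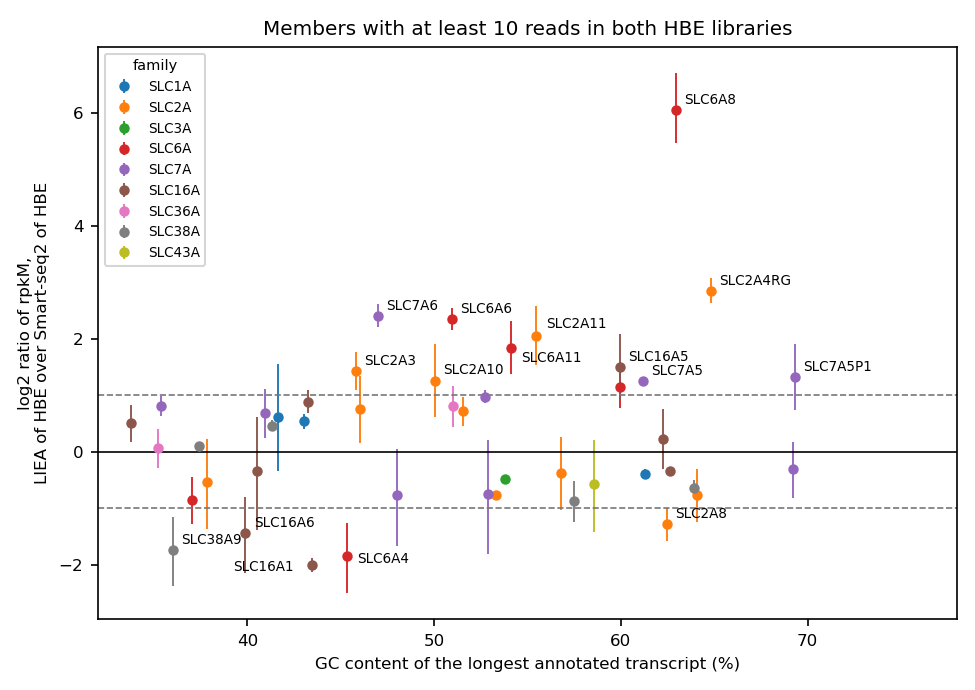
Log2 ratio of rpkM of LIEA to Smart-seq2 in HBE (vertical) against the GC content of the longest annotated transcript (%, horizontal) for 46 members with at least 10 reads in both, with 95% counting intervals as bars, the 2-fold limits dashed and names for the ratios beyond 1.2 on either side. SLC6A8 stands alone at 6.05, and the other members lie between -2.00 and 2.85.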

How the data were processed

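Mapping by the authors used FANSe2 and RefSeq-RNA (hg19 per the labels); they merged splice variants and deposited log2 rpkM per gene, after removing Ion Torrent reads with a Phred score under 10 within the leading 42 nt. The deposited log2 values hold no pseudocount, and genes without reads are not listed. Totals and reads were recovered from the values: all 18836 genes gave whole reads (100%), which does not fix a whole factor common to reads and length. This factor, above 1 for 1002 genes, was chosen by annotated transcript lengths, so single counts may be off by that factor. The recovered reads sum to between 97.1% and 97.6% of the totals. A count of 0 allows up to 3 reads, or 0.722 (LIEA of A549), 0.651 (LIEA of HBE) and 0.305 (Smart-seq2 of HBE) reads per 1000000. In each library, 4 rows with repeated names of date form were left out, as were any other rows with names turned into dates, which were not counted.

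Ratios are of rpkM, with exact conditional binomial intervals at the 95% level. Described singly are members with at least 100 reads in a library, 9 carriers chosen by name, and members past 2-fold or quantified in 1 library of a pair. HK2, HK1, AKR1B10, TXNIP, GCLM and TXN were named after their values were seen. GC content and loci came from GENCODE release 44 on GRCh37. Some members enter the counts but are not reported singly here. Members and lists were chosen with earlier results of these data known. Recovery and intervals were tested on simulated data. Tools were blastn 2.17.0, matplotlib 3.10.9, pandas 2.3.3, scipy 1.17.1, numpy 2.4.6 and Python 3.11.15.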

Additional observations from a re-analysis of the deposited data

How the results depend on the processing

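With 1 library per condition, no difference has a replicate check. No paired analysis was possible because no condition has more than 1 library. Of 79 counts and medians recomputed under other settings, 67 stayed close to the value given (counts within 1.5 times). Among the single genes recomputed, none past 2-fold changed its sign. The balance of calls for LIEA against Smart-seq2 did turn with centring by GC content, from 12 higher and 5 lower to 11 higher and 14 lower. For A549 against HBE, 5 members were higher with at least 20 reads in both libraries, 16 with any reads in both, and 5 at a 3-fold limit, while 9 were lower at 3-fold and 10 with the whole interval past 2-fold. For LIEA against Smart-seq2, 20 were higher at a 1.5-fold limit and 6 at 3-fold, and 8 were lower with any reads in both, 14 with centring by GC content, 12 at 1.5-fold, 3 at 3-fold and 3 with the whole interval past 2-fold. Those limits change the counts by construction, and for the centring the cause was not tested. Rescaling rpkM to a common sum (TPM) moved the median of all genes from -0.16 to -0.32 for the cell lines and from 0.10 to 0.30 for the methods. Centring on that median left 12 members lower in A549, without SLC2A1, SLC36A1, SLC36A4 and SLC2A4RG, and 9 higher. Of 336 values of single genes, 259 moved by less than their counting interval. Ratios that rest on fewer than 10 reads have wide intervals.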
